A study of Mus musculus with 4 samples.

Results

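The Wnt6-Wnt10a-Ihh-Epha4-Pax3 locus on mouse chromosome 1 is described here through the positions of H3K4me3, CTCF and RAD21 peaks in embryonic stem cells. The 5 genes were listed by name, and every peak from 50 kb before Wnt6 to 50 kb after Pax3 was taken, a window of 3.54 Mb at chr1:74704342-78247136 (mm10). It held 36 of 21600 H3K4me3 peaks, 92 of 51737 CTCF peaks and 126 of 75897 RAD21 peaks, and the 5 genes are 5 of 21627 protein-coding genes, counted on the 19 autosomes and X. The measurements came from ChIP-exo, in which an exonuclease trims immunoprecipitated DNA towards the point of crosslinking. The cells were Bruce-4, a C57BL/6J embryonic stem cell line grown on gelatin in serum/2i/LIF medium, fixed at 10000000 cells per library, and no group was treated or mutated. There were 4 libraries, 1 for H3K4me3, 2 for CTCF and 1 for RAD21, and 1 peak list per antibody was analysed, the CTCF list being a union.

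The lists gave positions only, so peak height and sequencing depth are unknown, no replicate comparison was possible, and a missing peak shows only that none was called. All values are descriptions of these 3 lists. Intervals given with shares are Wilson 95% intervals, which cover counting error only. The cell type label was checked through H3K4me3 within 1 kb of a gene end, which 57.2% of all protein-coding genes carried. Of 10 embryonic stem cell markers 9 carried it (Esrrb did not), against 1 of 10 fibroblast or feeder markers (Thy1) and 3 of 8 primitive endoderm markers (Gata6, Lama1 and Sox17).

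Cohesin, of which RAD21 is a subunit, travels along DNA and forms loops, and CTCF bound to its DNA motif halts it, so sites with both proteins often lie at the borders of chromatin domains. H3K4me3 marks active and poised promoters. The locus is a model for such borders: Wnt6 and Wnt10a encode secreted Wnt ligands, Ihh encodes a hedgehog ligand of the growing skeleton, Epha4 encodes a receptor tyrosine kinase for ephrins, and Pax3 encodes a transcription factor of neural crest and muscle precursors. Epha4 shares its domain with long stretches of noncoding DNA that hold limb enhancers. Deletions, inversions and duplications that involve a border of this domain have been tied to misexpression of Pax3, Wnt6 or Ihh. They have also been tied to limb malformation in human and mouse. The lists show where the proteins were bound, not contacts, so they do not themselves place a border.

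The sequences available under these peaks are shown first. RefSeq promoter sequences (GRCm38.p6, the assembly that mm10 names, from 250 bases before to 50 after a start site) matched 3 of the 5 genes: Wnt6, Ihh and Epha4. Wnt10a and Pax3 were not among them. The first pair below are the promoters on which H3K4me3 was found, each written 5′ to 3′ on the minus strand, with the bases inside an H3K4me3 peak in capitals.
Ihh promoter, chr1:74951623-74951922: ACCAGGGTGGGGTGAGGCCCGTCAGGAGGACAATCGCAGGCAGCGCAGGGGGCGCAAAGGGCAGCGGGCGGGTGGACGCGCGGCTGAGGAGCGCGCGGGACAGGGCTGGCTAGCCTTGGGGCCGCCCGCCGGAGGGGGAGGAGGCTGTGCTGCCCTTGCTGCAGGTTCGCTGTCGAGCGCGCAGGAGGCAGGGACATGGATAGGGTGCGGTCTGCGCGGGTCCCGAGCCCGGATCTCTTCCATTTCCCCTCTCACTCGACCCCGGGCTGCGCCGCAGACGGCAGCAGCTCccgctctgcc
Epha4 promoter, chr1:77515039-77515338: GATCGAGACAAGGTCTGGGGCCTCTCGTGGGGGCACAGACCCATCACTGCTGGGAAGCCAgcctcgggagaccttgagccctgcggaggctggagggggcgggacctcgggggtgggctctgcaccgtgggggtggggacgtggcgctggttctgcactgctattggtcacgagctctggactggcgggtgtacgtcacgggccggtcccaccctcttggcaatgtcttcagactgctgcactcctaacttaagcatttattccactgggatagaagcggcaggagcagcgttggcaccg
At Ihh 290 of the 300 bases lay inside a peak. At Epha4 only the 60 bases farthest upstream did, and the start site itself lay in a gap of 246 bases between a pair of H3K4me3 peaks.

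The next set holds the sequence of CTCF-RAD21 sites (a CTCF peak that overlaps a RAD21 peak by at least 1 bp), for those sites that fall wholly inside a promoter sequence. Capitals mark the bases inside the CTCF peak, with up to 20 bases on each side in lower case. The Gm33083 site lies between Epha4 and Pax3, the Retreg2 site between Ihh and Epha4 (chosen after its values were seen), and the Prkag3 site is the nearest below Wnt6.
Gm33083 site, chr1:77896388-77896464, minus strand: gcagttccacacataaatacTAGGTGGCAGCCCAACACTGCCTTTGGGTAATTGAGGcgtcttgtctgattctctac
Retreg2 site, chr1:75142710-75142835, plus strand: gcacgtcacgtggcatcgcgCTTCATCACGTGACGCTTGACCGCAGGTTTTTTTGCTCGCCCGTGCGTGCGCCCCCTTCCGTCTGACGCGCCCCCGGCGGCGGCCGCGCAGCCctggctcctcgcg
Prkag3 site, chr1:74748906-74749182, minus strand: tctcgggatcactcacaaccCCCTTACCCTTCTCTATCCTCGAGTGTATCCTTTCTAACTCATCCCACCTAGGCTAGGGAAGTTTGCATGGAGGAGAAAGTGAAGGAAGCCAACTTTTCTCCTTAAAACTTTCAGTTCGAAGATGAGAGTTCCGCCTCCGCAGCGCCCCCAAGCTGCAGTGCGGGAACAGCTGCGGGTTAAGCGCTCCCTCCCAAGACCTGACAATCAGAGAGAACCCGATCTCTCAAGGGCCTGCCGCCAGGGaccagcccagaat

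A further site, inside Epha4, covers a whole annotated miRNA hairpin, shown here because it gives some of the letters under the longest RAD21 peak over the 5 genes. The hairpin has 116 bases, so it shows only part of that 554 bp RAD21 peak and of the 192 bp CTCF peak. It is written 5′ to 3′ on the minus strand, with the mature miRNA mmu-miR-6352 in capitals.
Mir6352 hairpin, chr1:77496653-77496768: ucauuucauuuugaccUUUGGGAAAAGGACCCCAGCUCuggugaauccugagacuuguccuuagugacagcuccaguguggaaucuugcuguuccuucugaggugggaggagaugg

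The CTCF core was searched for on both strands as the letters CC, AG and GGC in that order, with 3 bases of any kind between CC and AG and 2 between AG and GGC. It was in none of the sequences shown, nor in the Wnt6 promoter. Of all 32851 promoter sequences of 300 bases 8.61% held it, and of the 2519 that overlapped a CTCF peak 32.4% did. Then 2 of the forms that its last 7 letters can take, AGGTGGC and AGGGGGC, were searched, chosen after the sequences had been seen. Other forms of these letters were not searched on their own. AGGTGGC was in the Gm33083 site, inside the 37 bp CTCF peak, and in 6.15% of all promoter sequences and 11.9% of those that overlapped a CTCF peak. AGGGGGC was in the Retreg2 site, on its minus strand, and in the Ihh and Epha4 promoters, which had no CTCF peak. It was in 10.6% of all promoter sequences and 27.9% of those that overlapped a CTCF peak. Neither AGGTGGC nor AGGGGGC was in the Prkag3 site or the Mir6352 hairpin. The site and hairpin sequences hold 77 to 277 bases, which leaves fewer places for a match than 300 bases do. The shares over promoter sequences are therefore not at equal length with them. A match describes letters and not binding, and a missing match says only that these letters are not in the stretch searched.

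Across the window as a whole, CTCF and RAD21 coincided about as often as elsewhere. Of the 92 CTCF peaks 73 overlapped RAD21, 79.3% (interval 69.98 to 86.36%), against 81.9% of all CTCF peaks. Of the 126 RAD21 peaks 72 overlapped CTCF, 57.1% (interval 48.4 to 65.5%), against 55.9% of all RAD21 peaks. The RAD21 count is 1 lower, since a 736 bp RAD21 peak in Asic4 spanned a pair of CTCF peaks. The H3K4me3 peaks were likewise near the background: 7 of 36 overlapped CTCF and 11 of 36 overlapped RAD21, against 17.1% and 31.5% of all H3K4me3 peaks.

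The stretches of the locus differed in how densely the sites lay. From Wnt6 to Ihh, 197.3 kb, there were 18 CTCF-RAD21 sites, or 91.2 per Mb, against 16.5 per Mb over the genome (taken from the first to the last peak of each chromosome). Between Ihh and Epha4, 2416 kb, there were 39 sites, or 16.1 per Mb, and between Epha4 and Pax3, 586.2 kb, there were 10, or 17.1 per Mb. Both intervals were thus near the genome's density, but the sites in the first were packed at its Ihh end. Gene density did not follow site density throughout. Protein-coding genes numbered 35.5 per Mb from Wnt6 to Ihh, 10.8 per Mb between Ihh and Epha4 and 0 between Epha4 and Pax3, against 8.44 per Mb over the genome. The part of gene density in the site density was not tested.

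**Figure D1:**
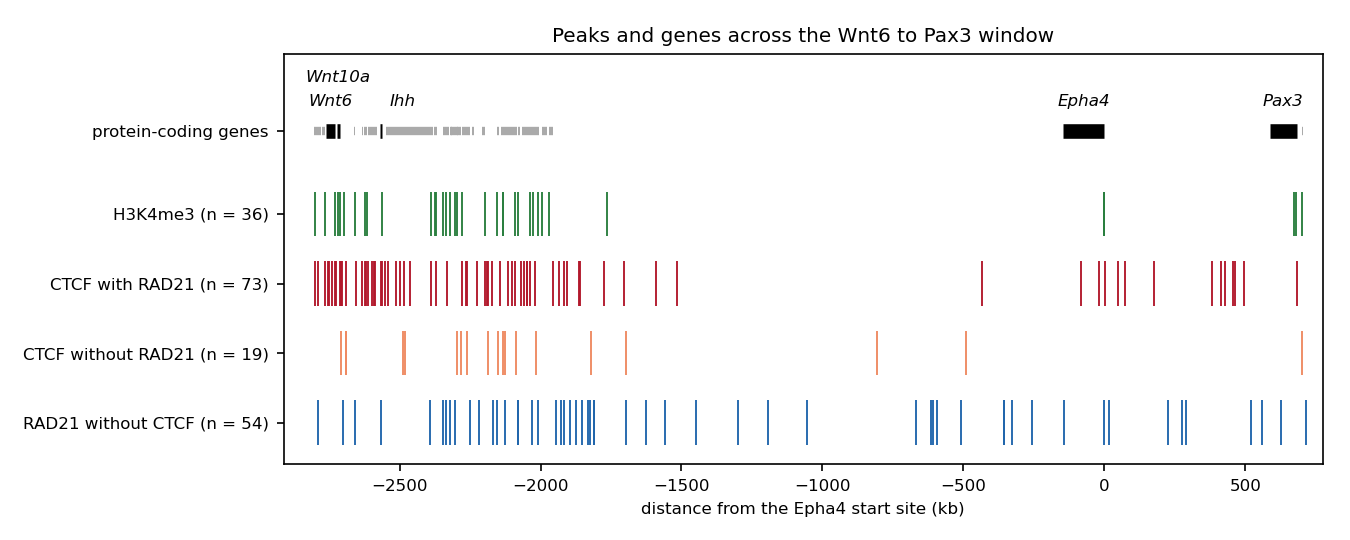
Each vertical line is the midpoint of a peak, placed by its distance in kb from the Epha4 start site, with protein-coding genes as grey bars and the 5 listed genes as black bars. The 73 CTCF peaks with RAD21 crowd the gene-dense left side, are missing over 1084 kb left of a lone site that lies 285 kb below Epha4, and occur again at Epha4 and between Epha4 and Pax3.

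The Wnt6-Wnt10a pair lay in the densest part. Wnt6 (chr1:74754342-74785322, on the plus strand) held 4 CTCF-RAD21 sites, with CTCF peaks of 77, 213, 214 and 146 bp. The last of these, at 74784610 to 74784755, lay 639 bp inside the high-coordinate end of the gene. The 77 and 213 bp peaks lay below the start site of the Wnt6 promoter sequence, at 74771892. They count as inside the gene only through its outer end in RefSeq. Just below Wnt6 the nearest site was the 244 bp CTCF peak printed above, in the promoter of Prkag3, which encodes a regulatory subunit of AMP-activated kinase.

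Between Wnt6 and Wnt10a there was a single site, a 104 bp CTCF peak with a 226 bp RAD21 peak, 2.71 kb above Wnt6 and 3.98 kb below Wnt10a. Wnt10a (chr1:74792019-74804176) held 1 site, a 190 bp CTCF peak 0.991 kb inside its high-coordinate end. Sites therefore lay on both sides of each Wnt gene and inside it.

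H3K4me3 at Wnt6 lay away from its start site. The only H3K4me3 peak within 1 kb of Wnt6 was 844 bp long, at 74783877 to 74784720, and lay 11985 bp from the Wnt6 start site that the promoter table gives, at 74771892. It overlapped the CTCF-RAD21 site at the gene's 3′ end. The outer low-coordinate end of Wnt6 in RefSeq, at 74754342, lies below that start site, and no H3K4me3 peak was called within 2.5 kb of either position. Wnt10a had a 474 bp peak inside the gene, 2625 bp from its low-coordinate end, and an 817 bp peak 197 bp from its high-coordinate end. The 817 bp peak also overlapped a CTCF-RAD21 site. The strand of Wnt10a is not in the tables used, so neither peak could be tied to its start. The 474 bp peak also overlapped the end of Gm32099, a lncRNA gene, so the list does not say to which gene it belongs.

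Ihh (chr1:74945315-74951672, minus strand) had H3K4me3 at its start site. The peak was 324 bp long, at 74951633 to 74951956, among the shorter of the list, since 88.2% of all H3K4me3 peaks were at least as long. It overlapped neither CTCF nor RAD21. A CTCF-RAD21 site lay inside the gene, a 92 bp CTCF peak with a 341 bp RAD21 peak, 2.68 kb from the start site, and another lay 2.70 kb beyond it on the far side, with an 89 bp CTCF peak. A second RAD21 peak inside Ihh, of 192 bp, had no CTCF. The Ihh start was therefore flanked at nearly equal distance by a pair of sites. Their CTCF peaks were somewhat below the median of 119 bp over all CTCF-RAD21 sites in the genome.

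**Figure D2:**
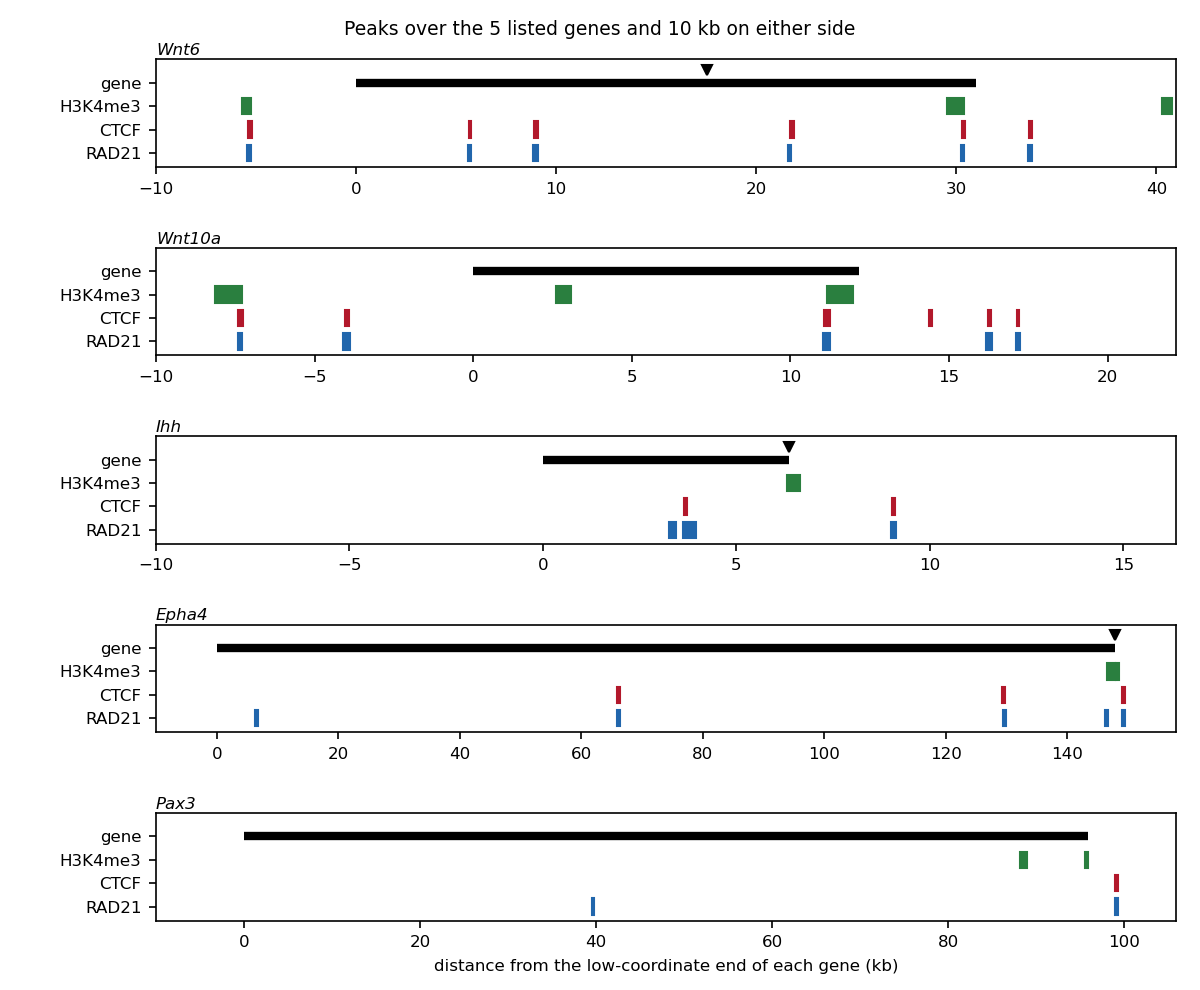
Peaks over each listed gene and 10 kb on either side, by distance in kb from the low-coordinate end, with the gene as a black bar and the start site as a triangle where the promoter table gives it. Very narrow peaks are drawn at a minimum width, so the pair of H3K4me3 peaks at Epha4 appears as one. H3K4me3 sits at the start of Ihh and Epha4 and at the end opposite the start of Wnt6.

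Between Ihh and Epha4 the 39 sites fell into unequal parts. Slc4a3, which encodes an anion exchanger, is the last protein-coding gene before Epha4. In the 607.8 kb up to its end there were 28 sites, 46.1 per Mb, among 26 protein-coding genes. In the 1808 kb beyond it there were 11 sites, 6.09 per Mb, and no protein-coding gene. The division at Slc4a3 was made after the positions had been seen. Up to Slc4a3 neighbouring sites were a median of 16.5 kb apart and at most 72.4 kb apart, and beyond it a median of 57.0 kb.

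The longest CTCF peaks with RAD21 in this interval lay inside or beside genes of the dense part. The longest was 514 bp, at 75016979 to 75017492 inside Nhej1, a gene for DNA end joining, with a RAD21 peak of 527 bp. Only 0.661% of all CTCF-RAD21 sites had a CTCF peak as long. It was followed by 417 bp in Asic4, which encodes a member of the acid-sensing ion channel family, at 75456838 to 75457254, with a RAD21 peak of 192 bp. Next came 383 bp in Chpf, a gene for chondroitin synthesis, at 75477311 to 75477693, with a RAD21 peak of 486 bp.

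The fourth was 327 bp, at 75495236 to 75495562 in Obsl1, which encodes a cytoskeletal adaptor. The fifth was 287 bp, at 75559505 to 75559791, centred 217 bp beyond Slc4a3, with a RAD21 peak of 311 bp. It is the first site of the stretch without protein-coding genes.

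**Figure D3:**
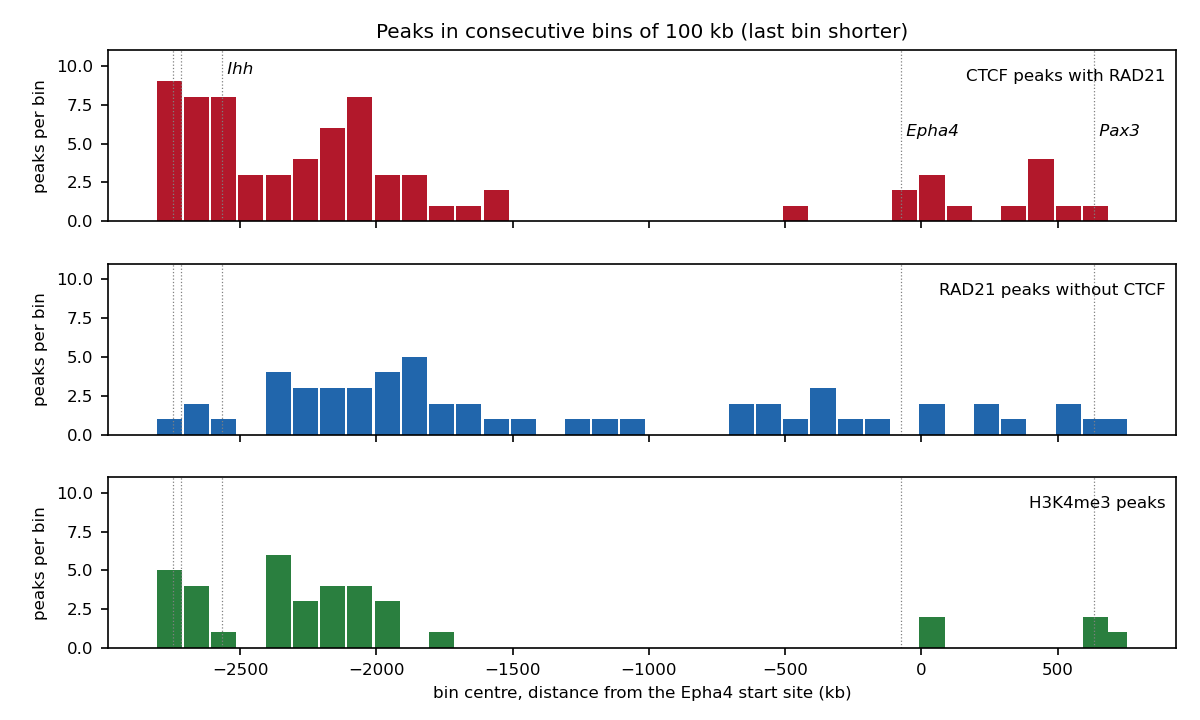
Number of CTCF peaks with RAD21 (top), RAD21 peaks without CTCF (middle) and H3K4me3 peaks (bottom) in consecutive bins of 100 kb, by distance of the bin centre from the Epha4 start site in kb; dotted lines mark the middles of the 5 listed genes. The top panel reaches 9 at Wnt6 and stays at 0 over consecutive bins left of Epha4, where the middle panel still shows peaks.

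Beyond Slc4a3 the sites thinned out and then stopped. Of the 11 sites there, 10 lay within 438 kb of Slc4a3, the last of them at 75997396 to 75997470, a 75 bp CTCF peak with a 261 bp RAD21 peak. The next site, the only other one before Epha4, was at 77081830 to 77081868. Its CTCF peak was 39 bp, among the shortest in the list, although its RAD21 peak was 272 bp. Between these sites lay 1084 kb without a CTCF-RAD21 site. Only 0.387% of the 42340 gaps between neighbouring sites in the genome were as long, and the genome's median gap was 22.2 kb.

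A second long gap followed. From the site at 77081830 to the first site inside Epha4, at 77433320 to 77433384, there were 351.5 kb, a length reached by 2.56% of gaps. Without the calls at the shortest lengths (CTCF of 39 bp or less, RAD21 of 71 bp), an alternative chosen after seeing the data, the lone site dropped out and the site-free part of the interval grew to 1370 kb, reaching the end of Epha4. The site at 77433320, whose RAD21 peak was 71 bp, dropped out as well, so that the next site was the one at 77496634 inside Epha4.

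The first gap was not empty. It held 2 CTCF peaks without RAD21, both 39 bp, and 9 RAD21 peaks without CTCF, of median length 193 bp and up to 285 bp, 7 of them above the list's shortest length. No H3K4me3 peak was called in it. Over the whole stretch beyond Slc4a3, RAD21 without CTCF occurred at 14.4 per Mb, against 13.1 per Mb over the genome, while CTCF-RAD21 sites occurred at 6.09 against 16.5 per Mb. Accordingly 29.7% of its RAD21 peaks had CTCF (11 of 37, interval 17.5 to 45.8%), a share below the 55.9% of the whole list. The stretch was divided off after the site positions had been seen. Its low share is therefore not independent of that choice, and the interval does not allow for it.

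These RAD21 peaks were not mainly the shortest calls. Their median length was 127 bp, against 95 bp for all RAD21 peaks without CTCF, and 19.2% of the 26 were at 71 bp, against 33.0% over the genome. The longest was 408 bp, at 75888800 to 75889207, a length reached by 0.896% of all RAD21 peaks without CTCF. It was named after its length had been seen. No fit or test bears on these differences, since each list comes from 1 call set.

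**Figure D4:**
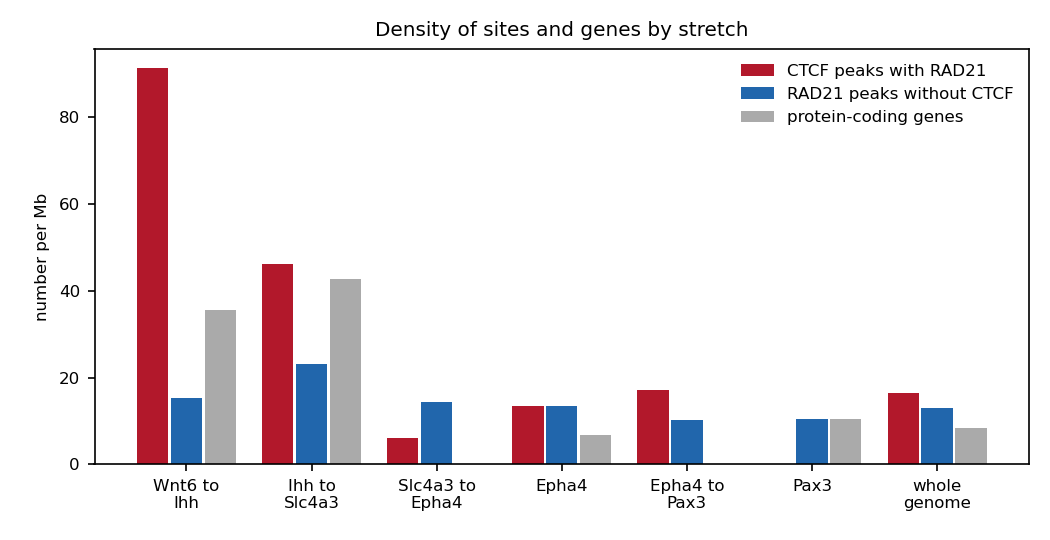
Number per Mb of CTCF peaks with RAD21 (red), RAD21 peaks without CTCF (blue) and protein-coding genes (grey) in 6 stretches of the locus and over the genome. The red bar stands at 6.09 in the stretch beyond Slc4a3, against 16.5 for the genome, and the blue bar at 14.4, against 13.1.

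H3K4me3 was nearly missing from the stretch beyond Slc4a3 as well. Its only peak there was 294 bp, the shortest length in the list, at 75750446 to 75750739, outside any annotated gene. Up to Slc4a3 there were 21 H3K4me3 peaks, of median length 817 bp. The widest was 1368 bp, at the neighbouring ends of Obsl1 and Inha, which encodes the alpha subunit of inhibin. A peak of 1342 bp lay inside Tuba4a, an alpha tubulin gene, and within 1 kb of an end of A630095N17Rik. A peak of 1216 bp lay at the neighbouring ends of Atg9a, an autophagy gene, and Ankzf1.

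Epha4 (chr1:77367182-77515107, minus strand) had the widest H3K4me3 peak of the 5 genes. A peak of 1331 bp lay just inside the gene, ending 56 bp from the start site, and one of 413 bp lay just outside it, 191 bp from the start site. Only 9.12% of all H3K4me3 peaks were as long as the first. Neither overlapped CTCF or RAD21, although a 76 bp RAD21 peak, at 77513623 to 77513698, ended just short of the first.

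Sites at Epha4 lay mostly near its start. The nearest lay 1.34 kb beyond the high-coordinate end, at 77516381 to 77516509, a 129 bp CTCF peak under a 445 bp RAD21 peak. Inside the gene, 18.4 kb from that end, was the site over Mir6352, at 77496634 to 77496825, with a CTCF peak of 192 bp and a RAD21 peak of 554 bp. Only 1.04% of all RAD21 peaks were as long, and 10 of 1005 miRNA hairpins in RefSeq overlapped a CTCF-RAD21 site. The third site, 65 bp of CTCF and 71 bp of RAD21, lay 66.2 kb inside the opposite end. Below that end there was none for 285 kb. The start of Epha4 thus had sites on both sides within 20 kb, and its 3′ end lay inside the gap of 351.5 kb.

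Between Epha4 and Pax3 every CTCF peak called had RAD21, 10 of 10 (interval 72.3 to 100%), against 81.9% of all CTCF peaks. The 81.9% lies within 72.3 to 100%, so this count does not set the stretch apart from the list. The 10 sites formed 2 groups with a gap of 204.8 kb between them, a length reached by 5.51% of the genome's gaps. The CTCF peaks at both edges of this gap were among the shortest, 39 and 37 bp, and the gap was 341.2 kb without the shortest calls and 353.7 kb with peaks above the median length only. The first group of 4 began at the Epha4 site above and held the longest CTCF peak of the interval, 281 bp at 77589483 to 77589763 inside the lncRNA gene Gm32793, with a RAD21 peak of 350 bp. It ended with a 39 bp CTCF peak at 77691607 to 77691645.

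The second group began with the 37 bp CTCF peak printed above, 128 bp upstream of the start of the lncRNA gene Gm33083 and inside the overlapping lncRNA gene Gm33030. Its RAD21 peak was 112 bp. Then followed 5 sites within 78.1 kb, a run singled out after their positions had been seen. Their CTCF peaks were 103, 203, 153, 97 and 254 bp, and their RAD21 peaks 324, 262, 218, 320 and 201 bp. The last, at 78008869 to 78009122, was the site nearest Pax3 on this side and lay 92.3 kb from the gene.

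**Figure D5:**
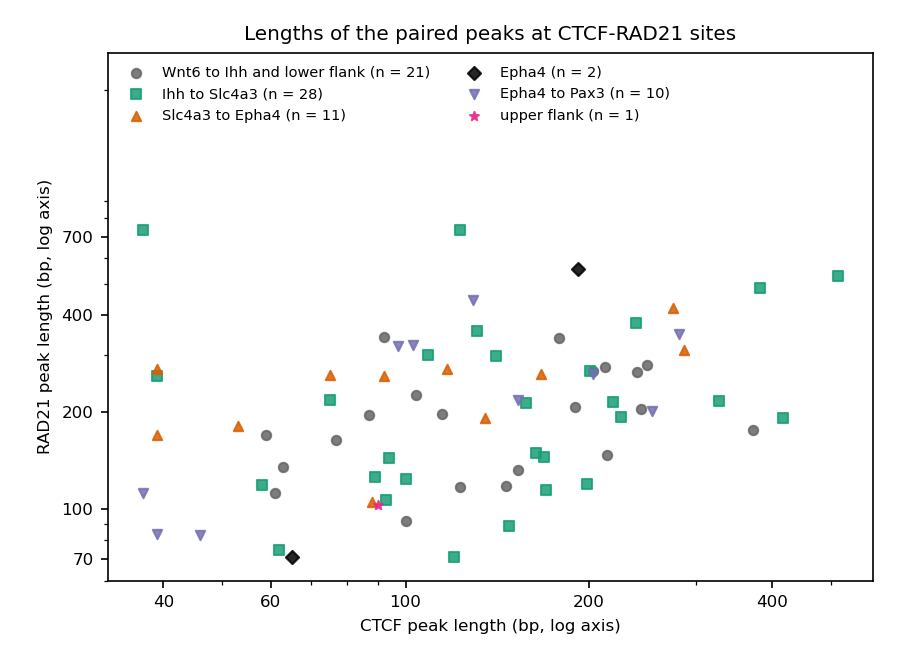
Length of the CTCF peak (horizontal log axis, bp) and of the RAD21 peak that overlaps it (vertical log axis, bp) at the 73 sites, by stretch; the 736 bp RAD21 peak of Asic4 is drawn for each of its CTCF peaks. The 10 sites between Epha4 and Pax3 span CTCF lengths of 37 to 281 bp, inside the range of the sites between Ihh and Slc4a3.

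The CTCF peaks of the Epha4-Pax3 interval were not long. Their median was 116 bp, that of the sites between Ihh and Epha4 was 131 bp, and that of all sites in the genome was 119 bp. The RAD21 peaks with CTCF had medians of 240 bp between Epha4 and Pax3 and 214 bp between Ihh and Epha4, against 183 bp over the genome. In the stretch beyond Slc4a3 the sites had a CTCF median of 92 bp and a RAD21 median of 261 bp.

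Within each pair the peaks were slightly shifted. Within the window the RAD21 midpoint lay on the low-coordinate side of the CTCF midpoint in 46 of 73 pairs (63.0%), against 49.9% over the genome, at a median distance of 34 bp, against 33 bp. Between Epha4 and Pax3 this was so in 7 of 10 pairs, and in the stretch beyond Slc4a3 in 5 of 11. The RAD21 midpoint was also the lower one in 19 of 28 pairs from Ihh up to Slc4a3 and in 11 of 18 from Wnt6 to Ihh. In the lower flank the count was 3 of 3, in Epha4 1 of 2 and in the upper flank 0 of 1. The orientation of the CTCF motifs was not analysed here, for want of sequence at most sites.

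Pax3 (chr1:78101267-78197136) differed from the other 4 genes in holding no CTCF peak. It had 1 RAD21 peak inside, 201 bp long, without CTCF. No CTCF-RAD21 site lay between the site 92.3 kb below it and one 3.23 kb above it, at 78200319 to 78200408, a gap of 191.4 kb that 6.00% of gaps in the genome reached. H3K4me3 covered the high-coordinate end of Pax3 with a peak of 417 bp, and a second peak of 856 bp lay 6888 bp inside that end. Neither overlapped CTCF or RAD21. The neighbour above Pax3, Gm2102, had a 477 bp H3K4me3 peak that overlapped a 39 bp CTCF peak without RAD21.

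Set side by side, 5 of 5 genes had H3K4me3 within 1 kb of an outer end, where 57.2% of all protein-coding genes did. Counted at start sites alone, 2 of the 3 genes with a start site in the promoter table had it, Ihh and Epha4 but not Wnt6. CTCF and RAD21 lay within 1 kb of an end at Wnt6 and Wnt10a only, against 26.5% and 38.6% of all protein-coding genes. At Epha4 a CTCF-RAD21 site lay just outside that limit, 1.34 kb beyond an end. No wider limit is given here for CTCF or RAD21. All 5 had a CTCF-RAD21 site within 10 kb of an end, as 62.8% of genes did. Only the Wnt pair had H3K4me3 peaks that overlapped such a site.

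Among the 38 protein-coding genes that lie wholly in the window, 30 had H3K4me3 at an end (78.9%, against 57.2% of all genes), 14 had CTCF (36.8%, against 26.5%) and 23 had RAD21 (60.5%, against 38.6%). A peak between close neighbours counts for both genes, in the window as in the genome. Obsl1 and Inha shared the 1368 bp H3K4me3 peak, and Atg9a and Ankzf1 that of 1216 bp. The part of gene spacing in these shares was not tested. Beside Ihh, Cfap65, which encodes a protein of cilia and flagella, had CTCF and RAD21 at an end without H3K4me3, and Nhej1 had all 3. Beyond Wnt10a, Cdk5r2, which encodes an activator of the kinase Cdk5, had H3K4me3 and RAD21 without CTCF.

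The families of the 5 genes, listed with earlier results of these data known, were read the same way, and their counts stand beside shares of all protein-coding genes of 57.2% for H3K4me3, 26.5% for CTCF and 38.6% for RAD21. Of 19 Wnt ligand genes 15 had H3K4me3 at an end, 7 had CTCF and 4 had RAD21 (78.9%, 36.8% and 21.1%). The widest peak was 1253 bp, at Wnt5b. Wnt6 and Wnt10a were among the 4 Wnt genes with both CTCF and RAD21, the others being Wnt5b and Wnt7a, the last named after its value was seen.

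Of 14 hedgehog pathway genes 12 had H3K4me3 (85.7%, against 57.2% of all genes), 7 had CTCF (50%, against 26.5%) and 7 had RAD21 (50%, against 38.6%). The widest peak was 1933 bp, at Gas1, which encodes a hedgehog co-receptor, and the 324 bp at Ihh was the narrowest among those with a peak. Of 14 Eph receptor genes 10 had H3K4me3 (71.4%), 6 CTCF (42.9%) and 10 RAD21 (71.4%), with the widest peak, 1775 bp, at Epha2 and 1331 bp at Epha4. Of the 8 ephrin genes, which encode their ligands, 7 had H3K4me3 (87.5%), 4 CTCF (50%) and 2 RAD21 (25%), with 1592 bp at Efna3.

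Of the 9 Pax genes 3 had H3K4me3 at an end (33.3%, against 57.2% of all genes), Pax3 with 417 bp, Pax7 with 1117 bp and Pax8, named after its value was seen, while 2 had CTCF (22.2%, against 26.5%) and 4 had RAD21 (44.4%, against 38.6%). No test was made of these counts.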

How the data were processed

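ChIP-exo peak lists for H3K4me3, CTCF and RAD21 in Bruce-4 cells were used. Per the submitters' processing notes the build was mm10, and MACS2, bedtools 2.30.0, Picard 2.27.4 and Bowtie2 2.4.5 were used, their roles unstated. Peak thresholds, controls and the making of the CTCF union are unstated too. The authors deposited chromosome, start and end only, so values here are positions and lengths in bp (unit other). Starts were made 1-based.

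The 5 genes, the lists and the rule for naming genes and sites (the longest peaks, those nearest the genes, those bounding gaps) were chosen with earlier results of these data known. Overlaps of at least 1 bp were computed in Python 3.11.15 with pandas 2.3.3 and scipy 1.17.1, tested on simulated peaks and checked against bedtools 2.31.1. Genes and sequences came from RefSeq GRCm38.p6, and genes have outer ends only, 1 kb on either side being searched. Intervals took peaks by midpoint. The alternatives varied the overlap, peak length, flank and gene window.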

Additional observations from a re-analysis of the deposited data

How the results depend on the processing

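The shares of CTCF with RAD21 and of RAD21 with CTCF stayed inside their intervals under every alternative run: a larger minimum overlap relative to the shorter peak, peaks up to 100 bp apart, peaks resized to 200 bp, peaks above the median length, no flank, a flank of 100 kb, and no calls at the shortest lengths (the last chosen after seeing the data). Their ranges were 73.47 to 83.33% and 52.94 to 59.63%. The shares over the genome moved too. With peaks above the median length they were 71.74% and 48.57%, both below the window's 73.47% and 52.94%. Without the shortest calls they were 87.61% and 60.5%, both above the window's 83.33% and 59.63%. With peaks above the median length only, the sites numbered 20 between Ihh and Epha4 and 5 between Epha4 and Pax3, the longest site-free stretch in the second interval was 353.7 kb, and 3 of the 5 genes had a site within 10 kb of an end, because that setting removes shorter peaks. Without the shortest calls that stretch was 341.2 kb. The longest site-free stretch between Ihh and Epha4 was 1441 kb with peaks above the median length and 1370 kb without the shortest calls, and sites within 1 kb merged gave 38 sites there. At gene starts alone 2 listed genes had H3K4me3: 3 have a start in the table, and the Wnt6 start had no peak. Within 500 bp of an end 4 listed genes had H3K4me3. Over the families 47 genes had it at 1 kb, 40 at 500 bp and 53 at 2.5 kb. A wider window cannot lower such a count for any set of genes. Of all protein-coding genes 57.2% had H3K4me3 at 1 kb, and their share at 500 bp or 2.5 kb is not given here. Nor is the share of all genes with a site within 10 kb under the median length setting, so these counts say nothing particular to the genes. No paired analysis was possible because each antibody had 1 list. Leaving out a replicate was not possible either, for the same reason. Depth is unknown, so what lies below the calling threshold cannot be told.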

Other observations

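In the Wnt6 to Ihh stretch 1 H3K4me3 peak lay over a small RNA gene and 1 beside one, both more than 1 kb from any protein-coding gene; they were picked out after their positions were seen. A peak of 368 bp, at chr1:74900581-74900948, covered the hairpin of Mir375, a miRNA of endocrine cells. It overlapped neither CTCF nor RAD21, although a 372 bp CTCF peak with RAD21 began at 74901582. A peak of 744 bp, at chr1:74816971-74817714, began just beyond n-TGgcc3, an annotated tRNA gene, and also overlapped neither.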
